A study of Mus musculus with 12 samples.

Results

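The genes described are 10 members of bone morphogenetic protein (BMP) signalling outside the cell: the 5 ligands Bmp2, Bmp4, Bmp6, Bmp7 and Gdf10, and the 5 secreted antagonists Nog, Grem1, Chrd, Chrdl1 and Fst. They were picked by gene symbol, in a rule that does not use their values, but with earlier results of these data known. Each of the 10 matched 1 row of the 23735 gene models in the deposited tables. Messenger RNA came from FACS-purified hair follicle stem cells of mouse dorsal skin, in 12 libraries that fall into 7 groups by their labels. The anagen (growth phase) groups were inducible Foxc1 knockout (iKO) and FOXC1-Sox9CreER-heterozygous (Het) cells, with 2 libraries each from males aged 30 days on a mixed background (Black Swiss/C57BL/6). Both carried Sox9CreER, a Cre recombinase that tamoxifen activates in Sox9-expressing cells, and the labels state that Sox9CreER mice received tamoxifen and have a YFP reporter. Whether the Het controls have a full Foxc1 dose is not given. The second telogen (resting phase) groups were conditional knockout (cKO) by K14Cre, which acts in Krt14-expressing epithelium, a second iKO group, and wild type (WT). The cKO and WT groups were Black Swiss, and each had 1 male library (day 42) and 1 female library (day 46). The telogen iKO group had 2 male libraries of the mixed strain at day 60. Shh-heterozygous (Shh-Het) Agouti females gave 1 library of anagen II, an early growth substage, at about day 26 and 1 of first telogen at about day 23. The titles of these last libraries call them WT.

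BMP ligands are secreted dimers that bind paired serine/threonine kinase receptors, which phosphorylate SMAD transcription factors and induce targets such as the Id genes. Noggin, gremlin, chordin and follistatin bind ligands outside the cell and keep them from their receptors. In the hair follicle, BMP signalling is known to hold bulge stem cells in quiescence, and its local inhibition is part of the entry into anagen. Gdf10, also named BMP3b, belongs to the BMP3 branch of the family and differs from the other 4 ligands in the receptors it is thought to use.

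Values are FPKM, which scale fragment counts by transcript length and by library size, a scale on which genes of different length can be compared. The authors' tables give 1 pooled FPKM per group and gene, so a spread between libraries cannot be shown. Where nothing else is said, a gene counts as called, and is said to rise, fall or be higher or lower, at a q below 0.05 in the authors' deposited tables. An approximate standard error (SE) was taken as the log2 fold over the deposited statistic. Foxc1 itself had 1.40 FPKM in anagen iKO and 23.9 in Het cells, 1.59 in telogen cKO and 26.5 in WT cells, and 3.17 in telogen iKO against 27.5 in WT cells of the joint table. Bulge markers were present in every group, with Cd34 from 129 to 883 FPKM and Lhx2 from 149 to 257 FPKM. Krt5 and Krt15, which bulge cells express, were listed at 0 in several groups, so an exact 0 in these tables can be a failed estimate. Both Shh-Het libraries stood apart in fibroblast markers: Pdgfra had 50.3 FPKM in anagen II and 174 in first telogen, against at most 0.356 FPKM in the other 5 groups. In such bulk RNA, fewer cells of a type and less RNA per cell cannot be told apart.

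Among the members, the antagonists were the more abundant side, by a small margin in anagen II cells. In the joint table, which holds all 7 groups on 1 scale, Fst averaged 110.5 FPKM over the groups and Grem1 116 FPKM, while no ligand averaged more than the 18.0 FPKM of Gdf10. Bmp7 averaged 10.9, Bmp2 9.90, Bmp6 3.71 and Bmp4 1.86 FPKM. Chrd stayed below 1 FPKM in every group, and Chrdl1 exceeded 1 FPKM in first telogen alone. Summed over the 5 antagonists, levels were 121 FPKM in anagen iKO and 143 in Het cells, 349 in telogen cKO, 363 in telogen iKO and 381 in WT cells. The 5 ligands summed to 22.9 FPKM in anagen iKO and 87.4 in Het cells, 33.6 in telogen cKO, 33.0 in telogen iKO and 45.1 in WT cells. In the Shh-Het libraries, antagonists and ligands summed to 64.2 and 51.3 FPKM in anagen II and to 349 and 37.0 FPKM in first telogen. Gdf10 alone was 79.4% of the ligand sum in anagen Het cells. Without Gdf10 the ligands summed to 11.9 FPKM in anagen iKO, 18.0 in Het, 33.2 in telogen cKO, 32.1 in telogen iKO and 33.2 in WT cells.

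**Figure D1:**
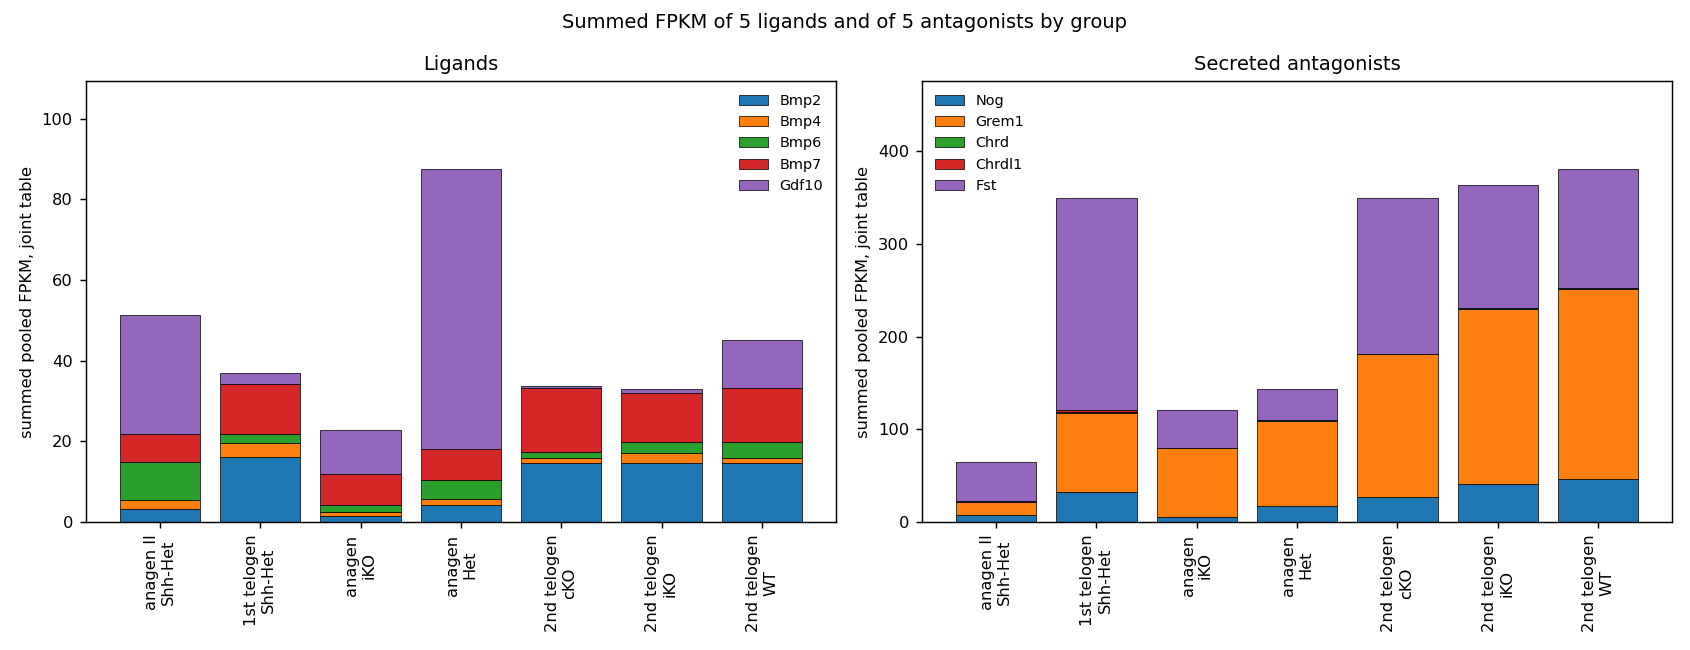
Stacked bars give the summed pooled FPKM of 5 ligands (left) and 5 secreted antagonists (right) in each of 7 groups of the joint table, with 1 colour per gene. Gdf10 makes up most of the ligand bar in anagen Het cells, and Grem1 and Fst make up most of every antagonist bar.

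Among the ligands, Gdf10 (XLOC_006001, chr14:34736773-34748468, mm9) had the widest range, 161-fold between its highest and lowest group. Its level was 11.0 FPKM in anagen iKO and 69.4 in Het cells, 0.430 in telogen cKO, 0.910 in telogen iKO and 11.9 in WT cells. The Shh-Het libraries had 29.6 FPKM in anagen II and 2.82 in first telogen. Anagen Het and anagen II cells were thus highest, and the telogen knockouts lowest. First telogen cells, which had 42.6 FPKM of Foxc1, lay below anagen iKO cells, which had 1.32 FPKM of Foxc1. First telogen rests on 1 library, and stage, strain, sex and age differ between these groups. A link between the levels of Gdf10 and Foxc1 was not tested. Anagen iKO and telogen WT cells lay next to each other in this order and did not differ by the test (q = 0.773 in the authors' deposited table).

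Bmp2 (XLOC_011545, chr2:133377895-133388632, mm9) had 1.51 FPKM in anagen iKO and 4.26 in Het cells, against 14.6 in telogen cKO, 14.6 in telogen iKO and 14.7 in WT cells. Among Shh-Het cells, anagen II had 3.32 FPKM and first telogen 16.2 FPKM. Every telogen group lay above every anagen group, and the 3 second telogen groups were not called against each other, with q of at least 0.983 between neighbours in the authors' deposited table. Bmp7 (XLOC_012784, chr2:172693513-172765822, mm9) was split the same way and over a narrower range: 7.72 FPKM in anagen iKO and 7.66 in Het cells, 15.9 in telogen cKO, 12.2 in telogen iKO and 13.3 in WT cells. Its Shh-Het values were 6.84 FPKM in anagen II and 12.4 in first telogen.

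Bmp6 (XLOC_005147, chr13:38437585-38591597, mm9), a ligand known to be made by bulge cells themselves, did not follow stage. It had 1.68 FPKM in anagen iKO and 4.57 in Het cells, 1.35 in telogen cKO, 2.64 in telogen iKO and 4.17 in WT cells. The highest value was 9.33 FPKM in anagen II, against 2.21 in first telogen. Bmp4 (XLOC_006435, chr14:46999199-47010274, mm9) had the lowest mean of the 5 ligands, with levels between 0.969 FPKM in anagen iKO and 3.39 FPKM in first telogen cells.

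Nog (noggin, XLOC_003814, chr11:89161952-89163873, mm9) had 5.55 FPKM in anagen iKO and 16.7 in Het cells, 26.5 in telogen cKO, 41.3 in telogen iKO and 46.8 in WT cells. Its Shh-Het values were 7.63 FPKM in anagen II and 32.3 in first telogen, so telogen groups again stood above anagen groups. Fst (follistatin, which binds activins and some BMPs; XLOC_005859, chr13:115242470-115248938, mm9) had 40.8 FPKM in anagen iKO, 33.6 in Het, 168 in telogen cKO, 133 in telogen iKO and 128 in WT cells. It had 42.1 FPKM in anagen II and 228 in first telogen. Grem1 (gremlin, XLOC_012441, chr2:113588832-113598805, mm9) had 74.2 FPKM in anagen iKO, 92.7 in Het, 155 in telogen cKO, 189 in telogen iKO and 205 in WT cells. For Grem1 the Shh-Het pair broke the split by stage, since first telogen, at 85.6 FPKM, lay below anagen Het cells, and anagen II had 13.7 FPKM.

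Chrd (chordin, XLOC_007714, chr16:20724527-20742457, mm9) ranged from 0.188 FPKM in telogen cKO to 0.809 FPKM in first telogen cells. Chrdl1 (a chordin relative, XLOC_023576, chrX:139720217-139828805, mm9) had 0.292 FPKM in anagen II and 2.67 in first telogen, at most 0.0752 FPKM in other groups, and was listed at 0 in telogen WT cells. The 14 fibroblast markers summed to 1145 FPKM in anagen II and 2370 FPKM in first telogen, the highest sum, and to 127 to 248 FPKM in the other groups. The part of other cell types in the Chrdl1 value was not tested.

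**Figure D2:**
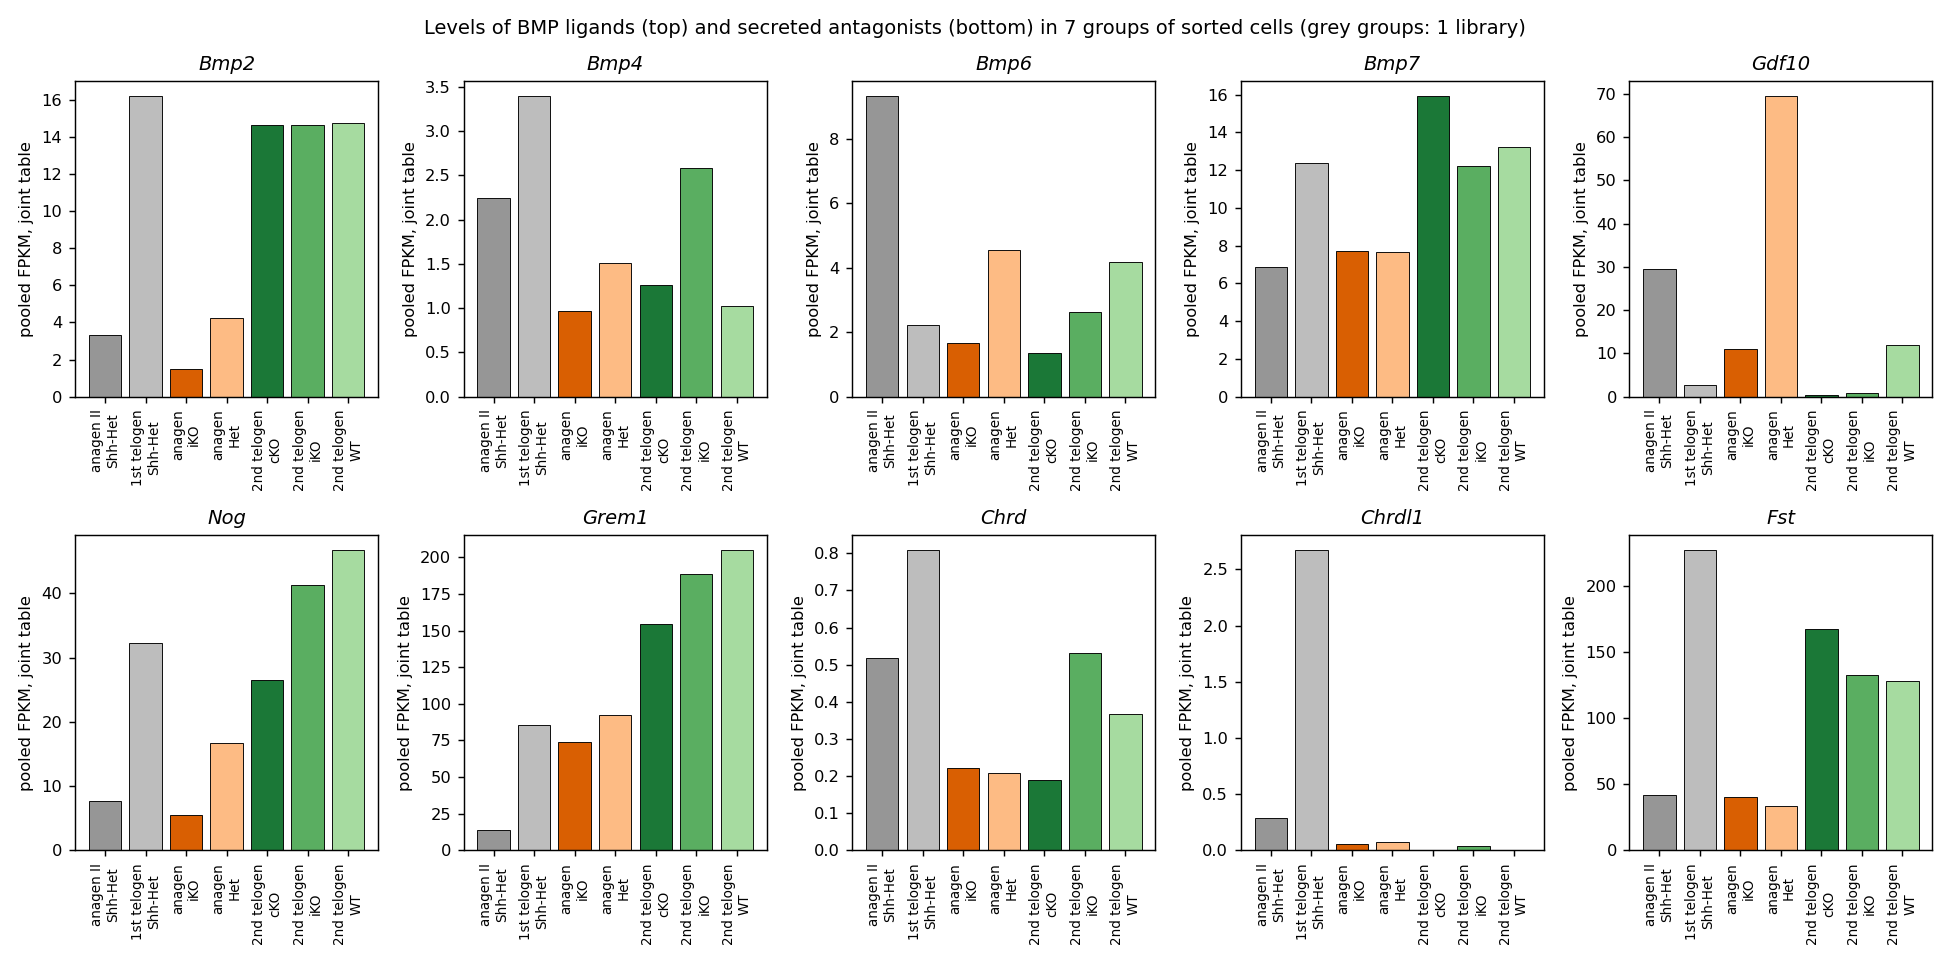
Each panel gives 1 gene, with bars for pooled FPKM (linear axis from 0, joint table) in 7 groups; grey bars rest on 1 library and the others on 2. Bmp2, Bmp7, Nog and Fst are higher in each telogen bar than in each anagen bar, while Gdf10 peaks at 69.4 FPKM in anagen Het cells.

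Promoters are shown for the pair of ligands that fell in both 2-group knockout comparisons described next, as RefSeq gives them in build GRCm38.p6, from 250 bases before to 50 bases after the annotated start. The promoter table held 5 of the 10 genes, Gdf10, Bmp6, Grem1, Bmp4 and Chrd. Capitals mark the GC-rich box GGCGCC, a sequence known to be bound by SMAD1 and SMAD5. The Gdf10 window is chr14:33923337-33923636 and the Bmp6 window chr13:38345466-38345765, both on the plus strand.
Gdf10: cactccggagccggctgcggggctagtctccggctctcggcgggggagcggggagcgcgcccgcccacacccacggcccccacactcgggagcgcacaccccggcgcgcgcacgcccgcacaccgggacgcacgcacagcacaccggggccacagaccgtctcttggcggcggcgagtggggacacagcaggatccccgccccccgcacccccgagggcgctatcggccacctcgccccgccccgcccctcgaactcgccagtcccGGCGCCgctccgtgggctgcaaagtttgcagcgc
Bmp6: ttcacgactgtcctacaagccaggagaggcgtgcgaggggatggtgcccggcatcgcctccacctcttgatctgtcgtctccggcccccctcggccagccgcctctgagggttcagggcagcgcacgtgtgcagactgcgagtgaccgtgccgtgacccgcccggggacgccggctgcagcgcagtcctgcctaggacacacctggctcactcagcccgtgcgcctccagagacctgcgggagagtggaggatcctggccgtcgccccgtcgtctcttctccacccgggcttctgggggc
Both windows were rich in G and C, at 77.3% for Gdf10 and 69.3% for Bmp6, against a median of 52.7% over all promoters in the table. The forkhead core TAAACA (reverse complement TGTTTA) was in 0 of 5 member windows and in 13.4% of 32851 promoters, and GTAAACA, which contains it, was in 3.65% of all and in no member window. GGCGCC, its own reverse complement, was in the Gdf10, Grem1 and Chrd windows and in 11.9% of all promoters. Grem1 was not called in any of the knockout comparisons, and Bmp6, which fell in both 2-group comparisons, had no box in its window. These matches describe letters in a 300-base window and say nothing on binding. Whether the box goes with a response to knockout was not tested.

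In anagen cells without Foxc1, 4 of the 10 genes fell and none rose: the ligands Gdf10, Bmp2 and Bmp6 and the antagonist Nog. This was 4 of 8 members tested. Of the 13716 genes tested in that table, 10.3% were called, 5.08% lower and 5.18% higher. No member was higher at an unadjusted p below 0.05 either. Gdf10 had 11.7 FPKM in iKO and 73.6 in Het cells, which is 6.30-fold lower (log2 fold -2.66, SE 0.25). Nog had 5.89 FPKM in iKO and 17.7 in Het cells, a log2 fold of -1.59 (SE 0.28). Bmp2 had 1.60 FPKM in iKO and 4.51 in Het cells, with a log2 fold of -1.49 (SE 0.34). Bmp6 had 1.78 FPKM in iKO and 4.84 in Het cells, a log2 fold of -1.44 (SE 0.36). Each of these 4 had q = 0.00106 in the authors' deposited anagen table, where p had reached its smallest value.

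The other members tested in anagen were not called. Bmp7 had 8.17 FPKM in iKO and 8.11 in Het cells (log2 fold 0.01, SE 0.27). Grem1 had 78.6 and 98.2 FPKM in iKO and Het cells (log2 fold -0.32, SE 0.23), and Fst had 43.2 and 35.6 FPKM in iKO and Het cells (log2 fold 0.28, SE 0.23). Bmp4 had 1.03 FPKM in iKO and 1.60 in Het cells, with a wide SE of 0.53 on a log2 fold of -0.64. Chrd and Chrdl1 were too low to be tested by the authors. As a list, the 10 genes had a median log2((FPKM + 1) ratio) of -0.34, where all tested genes had -0.02.

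Other cell types differed between the anagen groups as well. All 14 fibroblast and dermal papilla markers had smaller values in iKO cells, 4 of 13 tested were lower, and their sum was 134 FPKM in iKO and 263 in Het cells. Of 12 hair shaft, matrix and inner root sheath markers 7 were lower, with a sum of 237 FPKM in iKO and 305 in Het cells. Of 8 endothelial and pericyte markers 7 had smaller values in iKO cells, with Vwf 6.03-fold and Tek 1.71-fold lower and Acta2 higher, at 10.8 FPKM in iKO and 6.55 in Het cells. Of 10 bulge markers tested 4 were lower, Foxc1 itself, Npnt (2.54-fold), Cd34 (1.77-fold) and Nfatc1 (1.48-fold). The melanocyte marker Mitf was 3.35-fold lower and the immune marker Cd74 2.47-fold higher. Cd74 was the 1 immune marker called, and of 5 measured 2 had larger and 3 had smaller values in iKO cells. The inner bulge list was lower by 1 of 3 genes, Fgf18. Of the cell cycle list, 12 of 12 genes rose without Foxc1. The part of these differences in the lower values of Gdf10, Nog, Bmp2 and Bmp6 was not tested.

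In second telogen, cKO cells had lower Gdf10, Bmp6 and Nog than WT cells, and no member was higher, also at an unadjusted p below 0.05. That was 3 of 9 members tested, where 6.62% of 13551 genes were called, 2.87% lower and 3.75% higher. Gdf10 had 0.414 FPKM in cKO and 11.4 in WT cells, 27.6-fold lower (log2 fold -4.79, SE 0.59, q = 0.00159 in the authors' deposited table). Bmp6 had 1.30 FPKM in cKO and 4.003 in WT cells, 3.09-fold lower (log2 fold -1.63, SE 0.48, q = 0.00638 in the authors' deposited table). Nog had 25.4 FPKM in cKO and 45.1 in WT cells, 1.78-fold lower (log2 fold -0.83, SE 0.29, q = 0.0179 in the authors' deposited table).

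Bmp2 had 14.04 FPKM in cKO and 14.2 in WT cells, a log2 fold of -0.02 with an SE of 0.33, which still leaves room for a moderate change either way. Grem1 had 149 FPKM in cKO and 197 in WT cells (log2 fold -0.41, SE 0.32). Fst had 161 FPKM in cKO and 124 in WT cells (log2 fold 0.38, SE 0.36), and Bmp7 had 15.3 and 12.7 FPKM in cKO and WT cells (log2 fold 0.26, SE 0.32). Bmp4 and Chrd, both near or below 1 FPKM, had SEs of 0.70 and 0.91 and were not called. The list median was -0.11, where all tested genes had 0.00. Fibroblast markers summed to 205 FPKM in cKO and 238 in WT cells, with Col1a1 called higher and Pdgfra, Dcn and Lum at 0.305 FPKM or less in both groups of the joint table. Most of the fibroblast sum was Col6a1, with 123 FPKM in cKO and 210 in WT cells of the joint table. Fgf18 was lower and 11 of 12 cell cycle genes were higher in cKO cells. Of 6 hair shaft and root sheath markers tested 2 were higher and 0 lower, and of 4 melanocyte markers tested 1 was lower. The part of these differences in the Gdf10, Bmp6 and Nog results was not tested.

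Telogen iKO cells, set against the same WT libraries in the joint table, had lower Gdf10 and higher Bmp4. These were 2 of 9 members tested, where 12.9% of 13714 genes were called, 5.88% lower and 7.01% higher. The WT cells differ from the iKO cells in strain, age, sex and tamoxifen treatment, so genotype cannot be told apart from these. Gdf10 had 0.910 FPKM in iKO and 11.9 in WT cells, 13.1-fold lower (log2 fold -3.71, SE 0.44, q = 0.000444 in the authors' deposited table). Bmp4 had 2.58 FPKM in iKO and 1.03 in WT cells, 2.51-fold higher (log2 fold 1.33, SE 0.54, q = 0.00463 in the authors' deposited table). Bmp6, with 2.64 FPKM in iKO and 4.17 in WT cells, was not called (log2 fold -0.66, SE 0.36, q = 0.0814 in the authors' deposited table). Nog had 41.3 FPKM in iKO and 46.8 in WT cells (log2 fold -0.18, SE 0.24). Bmp2, Bmp7, Grem1 and Fst had log2 folds between -0.12 and 0.05, and the list median was -0.06, where all tested genes had -0.02. Fibroblast markers summed to 158 FPKM in iKO and 248 in WT cells, with 3 of 8 tested lower. Most of that sum was Col6a1, with 123 FPKM in iKO and 210 in WT cells. Of the 14 markers 8 had larger and 6 had smaller values in iKO cells. Fgf18 was 5.99-fold lower, and 11 of 12 cell cycle genes were higher. Mitf was 2.24-fold and Tek 3.83-fold lower, while the melanocyte marker Dct was 2.22-fold and the immune marker Ptprc 2.13-fold higher. The part of these in the Gdf10 and Bmp4 results was not tested.

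**Figure D3:**
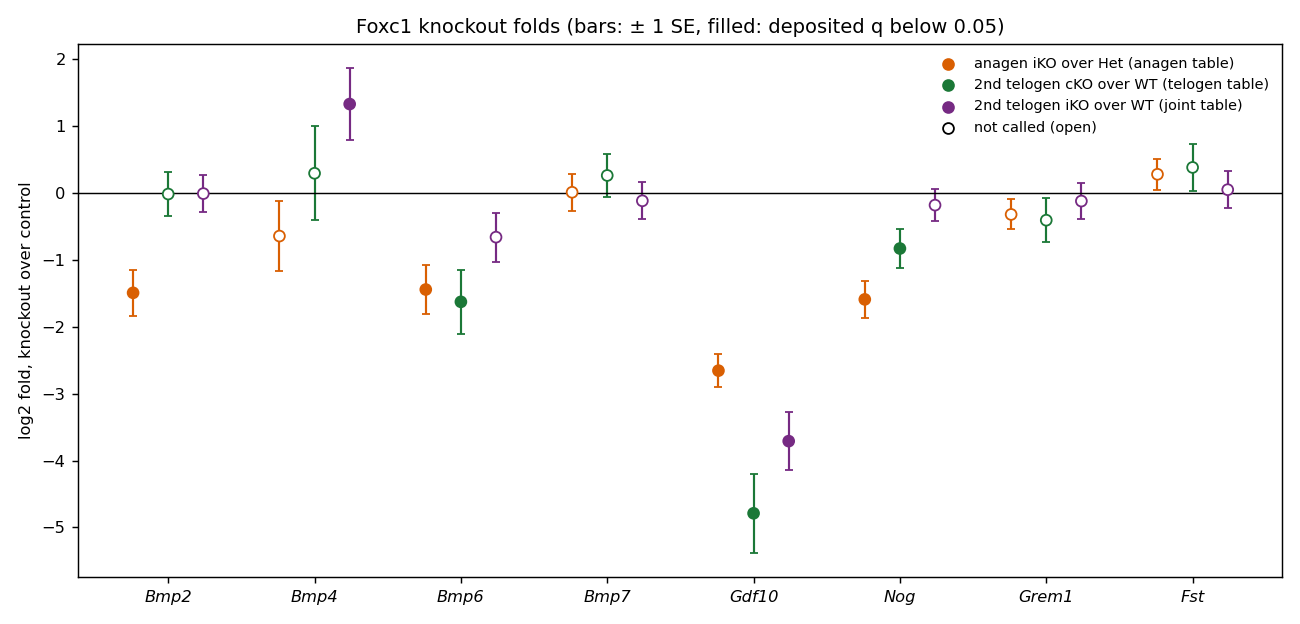
Points give the log2 fold of knockout over control for 8 genes in 3 comparisons, with bars of 1 SE either way; filled points were called and open points were not. Gdf10 is filled and below 0 in all 3 comparisons, Bmp6 and Nog in anagen iKO and telogen cKO cells, and Bmp2 in anagen iKO cells. The second telogen comparisons share their WT libraries.

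Both telogen knockouts were also compared directly. Telogen iKO cells had higher Nog, Bmp6, Bmp4 and Chrd than telogen cKO cells, 4 of 9 members tested, where 14.9% of 13711 genes were called, 7.53% higher and 7.35% lower. Cre driver, tamoxifen treatment, strain, age and sex differ between them and cannot be told apart. Nog had 41.3 FPKM in iKO and 26.5 in cKO cells (log2 fold 0.64, SE 0.24, q = 0.0126 in the authors' deposited table). Bmp6 had 2.64 FPKM in iKO and 1.35 in cKO cells (log2 fold 0.96, SE 0.43), and Bmp4 had 2.58 and 1.27 FPKM in iKO and cKO cells (log2 fold 1.03, SE 0.53). Chrd, at 0.532 FPKM in iKO and 0.188 in cKO cells, rested on very low levels. Gdf10, with 0.910 FPKM in iKO and 0.430 in cKO cells, was not called, and Bmp2 had 14.6 FPKM in both groups. Of 8 fibroblast markers tested 1 was higher and 1 lower in iKO cells, with Col1a1 14.2-fold lower. Of 7 hair shaft and root sheath markers tested 2 were lower and 0 higher, with Lef1 3.34-fold lower. In iKO cells 6 of 12 cell cycle genes were lower, and the immune markers Ptprc (2.66-fold), Cd207 (1.89-fold) and Cd3e (2.98-fold) were higher. Residual Foxc1 was 3.17 FPKM in iKO and 1.66 in cKO cells, a called difference. The part of these in the member values was not tested. At a q below 0.01, 0 of these 4 calls of the authors' Cuffdiff test were left.

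Telogen and anagen were compared within iKO cells and within controls. Of 9 members tested, 6 were higher and 1 was lower in telogen iKO than in anagen iKO cells, where 33.2% of 13787 genes were called, 17.6% higher and 15.5% lower. Bmp2 had 14.6 FPKM in telogen and 1.51 in anagen iKO cells, 9.68-fold higher (log2 fold 3.27, SE 0.35). Nog had 41.3 FPKM in telogen and 5.55 in anagen iKO cells, 7.43-fold higher (log2 fold 2.89, SE 0.29). Fst was 3.26-fold, Bmp4 2.66-fold, Grem1 2.54-fold and Bmp7 1.58-fold higher in telogen. Gdf10 moved the other way, with 0.910 FPKM in telogen and 11.0 in anagen iKO cells, 12.1-fold lower (log2 fold -3.60, SE 0.43). Bmp6 (log2 fold 0.65, SE 0.41) and Chrd were not called. Age, day 60 against day 30, differs with stage here. Of 12 hair shaft and root sheath markers 9 were lower in telogen, with sums of 22.8 FPKM in telogen and 223 in anagen iKO cells. Lower too were 5 of 6 endothelial and pericyte markers tested and 12 of 12 cell cycle genes. Of 5 immune markers 4 were higher and 1 was lower, and of 11 fibroblast markers tested 3 were higher and 4 lower. Residual Foxc1 was 3.17 FPKM in telogen and 1.32 in anagen iKO cells, a called difference. The part of these in the member values was not tested.

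Among controls, 5 of 9 members tested were higher and 1 was lower in telogen WT than in anagen Het cells, where 25.4% of 13932 genes were called, 13.5% higher and 11.9% lower. Fst was 3.82-fold higher (log2 fold 1.93, SE 0.27), Bmp2 3.46-fold (log2 fold 1.79, SE 0.30) and Nog 2.80-fold (log2 fold 1.48, SE 0.26). Grem1 was 2.21-fold and Bmp7 1.73-fold higher. Gdf10 was 5.83-fold lower (log2 fold -2.54, SE 0.28). Bmp6 had 4.17 FPKM in telogen WT and 4.57 in anagen Het cells and was not called (log2 fold -0.13, SE 0.34). Bmp4 was not called either (log2 fold -0.56, SE 0.57). Genotype, tamoxifen treatment, strain, sex and age differ with stage in this pair. Of 12 hair shaft and root sheath markers 10 were lower in telogen WT cells, with a sum of 22.5 FPKM against 288 in anagen Het cells. All 7 endothelial and pericyte markers tested and 11 of 12 cell cycle genes were lower too. Of 13 fibroblast markers tested 7 were lower and 1 was higher, and the list summed to 248 FPKM in each group. Dcn had 0.305 FPKM in telogen WT and 18.2 in anagen Het cells, while Col6a1 had 210 and 129 FPKM in these groups. The part of those cells in the stage differences was not tested.

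The Shh-Het pair has 1 library per stage and carries no test. Anagen II had more than 2-fold higher values of Gdf10 and Bmp6 than first telogen, and more than 2-fold lower values of Bmp2, Nog, Grem1, Chrdl1 and Fst. Past 2-fold were thus 2 of 10 members upward and 5 downward, where 41.9% of 17402 genes were past it, 8.65% upward and 33.3% downward. Gdf10 was 10.5-fold and Bmp6 4.22-fold higher in anagen II. Grem1 was 6.25-fold, Fst 5.41-fold, Bmp2 4.88-fold and Nog 4.23-fold lower. All tested genes had a median log2 fold of -0.26 in this pair, and immune markers summed to 23.6 FPKM in anagen II and 249 in first telogen. Of 12 hair shaft and root sheath markers 11 were past 2-fold upward and 0 downward. They summed to 269 FPKM in anagen II and 41.8 in first telogen. All 12 cell cycle genes were past 2-fold upward, with sums of 595 FPKM in anagen II and 146 in first telogen. The part of other cells was not tested.

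**Figure D4:**
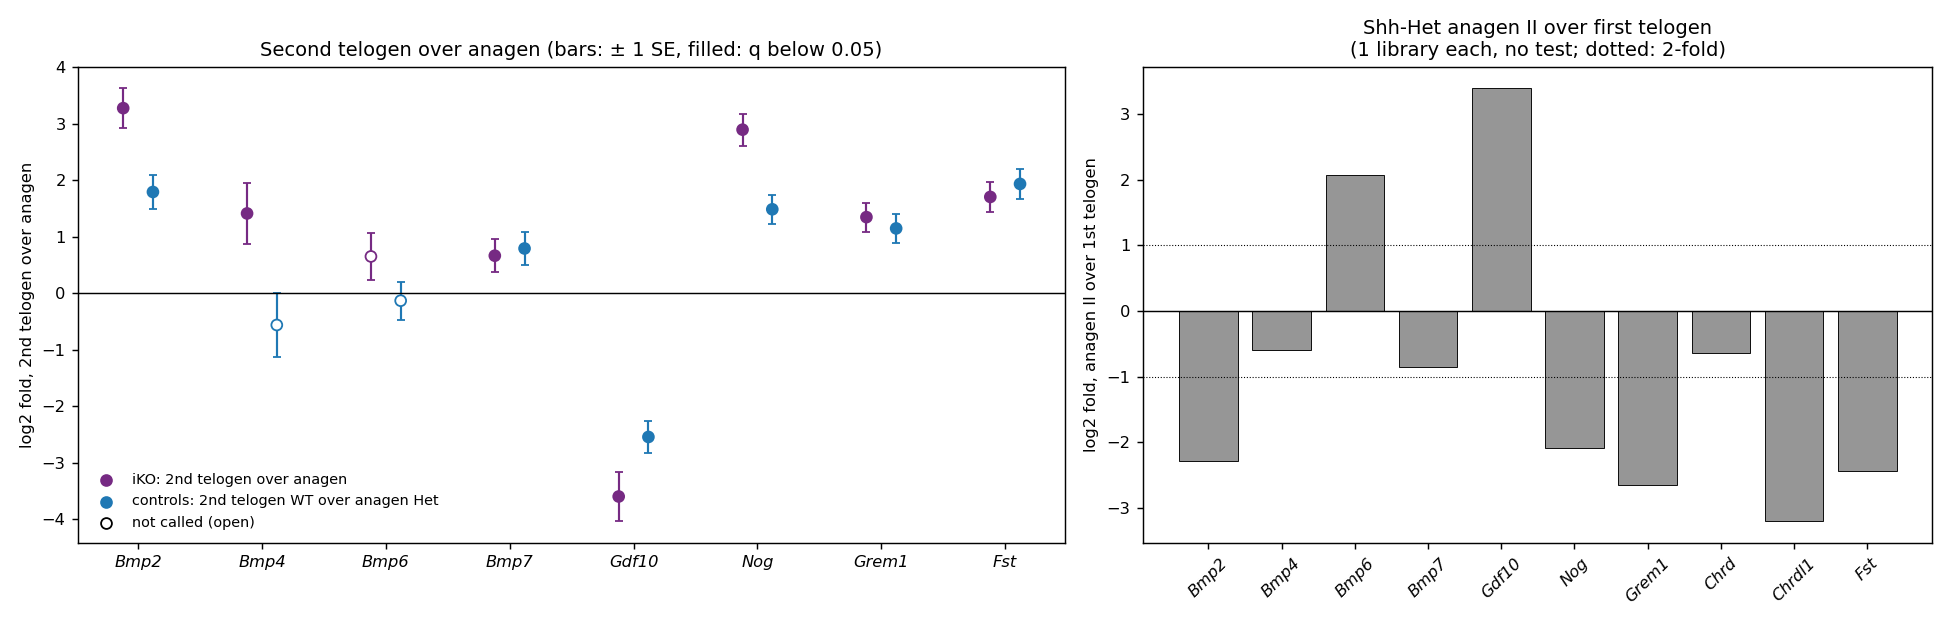
Left, points give the log2 fold of second telogen over anagen in iKO and in control cells, with bars of 1 SE either way, filled where called. Right, bars give the log2 fold of anagen II over first telogen in Shh-Het cells, 1 library each and no test. On the left Bmp2, Bmp7, Nog, Grem1 and Fst lie above 0 in both cell sets and Gdf10 below 0. On the right Gdf10 and Bmp6 lie above the dotted 2-fold line.

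Knockout effects in telogen and anagen were compared by a test on the difference of the log2 folds, adjusted over all genes in the test. Between the telogen cKO and anagen iKO comparisons, Cre driver, tamoxifen treatment, control genotype, strain, age and sex differ with stage and cannot be told apart from it. The telogen iKO cells differ from their WT control in strain, age, sex and tamoxifen treatment, which also cannot be told apart from stage. Between telogen cKO and anagen iKO, 0 of 8 members differed, and 2 had an unadjusted p below 0.05, where 0.657% of 12939 genes were called. With both folds taken from the joint table, 1 member, Gdf10, was called as differing. Gdf10 had a telogen minus anagen difference of -2.13 (SE 0.64, Benjamini-Hochberg q = 0.0871, z test over all genes). Bmp2 had a difference of 1.48 (SE 0.48, Benjamini-Hochberg q = 0.163, same test). Between telogen iKO and anagen iKO, a comparison added after the data were seen, Nog differed: its log2 fold was -0.18 in telogen and -1.59 in anagen, a difference of 1.41 (SE 0.38, Benjamini-Hochberg q = 0.0238, z test over all genes). There 1.28% of 12923 genes were called, and Nog was not called with a larger SE taken from the deposited p. Bmp2 had a difference of 1.48 (SE 0.47, Benjamini-Hochberg q = 0.0926, same test), Bmp4 of 1.97 (SE 0.78) and Gdf10 of -1.05 (SE 0.51), and these were not called.

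The rest of the BMP pathway was read from lists of other ligands, other antagonists, proteases, receptors, SMADs and targets. Of 10 receptor and co-receptor genes tested, 0 were called in anagen iKO, telogen cKO or telogen iKO cells by the authors' Cuffdiff test. At an unadjusted p below 0.05 there were 0, 0 and 1 of them in these 3 comparisons. Over all tested genes 10.3%, 6.62% and 12.9% were called in the same comparisons, so 0 of 10 lies near the share over all genes. Other BMP and GDF ligands were nearly silent, with a sum over 11 genes of 0.582 FPKM in anagen iKO and 4.16 FPKM in first telogen as the lowest and highest groups. Among 13 other antagonists, Smoc1, a matrix protein known to antagonise BMP signalling in frogs, fell 5.64-fold to 1.74 FPKM in anagen iKO, against 9.81 in Het cells, and Fstl1 fell 1.49-fold. Smoc1 was also 2.63-fold lower in telogen iKO than in WT cells. In telogen cKO cells 0 of 9 tested antagonists of this list were called by Cuffdiff (1 at an unadjusted p below 0.05), near the 6.62% over all genes. Sostdc1, an antagonist of BMP and WNT ligands, had 181 FPKM in telogen iKO and 652 in anagen iKO cells, 3.60-fold lower, and 247 FPKM in telogen WT against 792 in anagen Het cells, 3.20-fold lower. In both pairs Fst, Nog and Grem1 were higher in telogen. In the Shh-Het pair Sostdc1 had 193 FPKM in anagen II and 340 in first telogen, so there its value was the larger in telogen, as for Fst, Nog and Grem1. Nbl1, a relative of gremlin, was 3.07-fold and 3.41-fold higher in telogen in the iKO and control pairs.

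Of the proteases, Tll1, a tolloid enzyme that cleaves chordin, rose to 1.49 FPKM in anagen iKO, against 0.716 in Het cells, and to 3.96 FPKM in telogen iKO, against 1.23 in WT cells. Pcsk6, which cleaves ligand precursors, fell in the same comparisons, 1.41-fold in anagen and 2.38-fold in telogen. Its anagen call was close to the limit (q = 0.0487 in the authors' deposited table) and was lost in the joint table. In telogen cKO cells 0 of 6 proteases were called by Cuffdiff, with 1 at an unadjusted p below 0.05, near the 6.62% over all genes. Smad9, which transmits the BMP signal, fell 2.08-fold in anagen iKO, 2.34-fold in telogen cKO and 1.67-fold in telogen iKO cells. Of 8 genes in its list, the inhibitory Smad7 fell as well in anagen iKO cells (log2 fold -0.58, SE 0.24) and the inhibitory Smad6 in telogen iKO cells (log2 fold -0.65, SE 0.26), none rose in these 3 comparisons, and Smad9 was the 1 called in telogen cKO cells.

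Among 8 target genes, Id2, Id3, Hey1 and 1 further gene fell and Id4 rose in anagen iKO cells, and Id1, Id2 and Id3 fell in telogen cKO cells. Id2 had 173 FPKM in anagen iKO and 365 in Het cells, and 178 FPKM in telogen cKO and 368 in WT cells. In telogen iKO cells 0 of 8 targets were called against WT by Cuffdiff, with 2 higher at an unadjusted p below 0.05. Over all genes 12.9% were called there. Against telogen cKO cells, telogen iKO cells had higher Id1, Id2 and Id3, with Id3 at 697 FPKM in iKO and 250.4 in cKO cells (log2 fold 1.48, SE 0.23). The target list had a median of -0.51 in anagen iKO, -0.20 in telogen cKO and 0.25 in telogen iKO cells, where all tested genes had -0.02, 0.00 and -0.02.

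**Figure D5:**
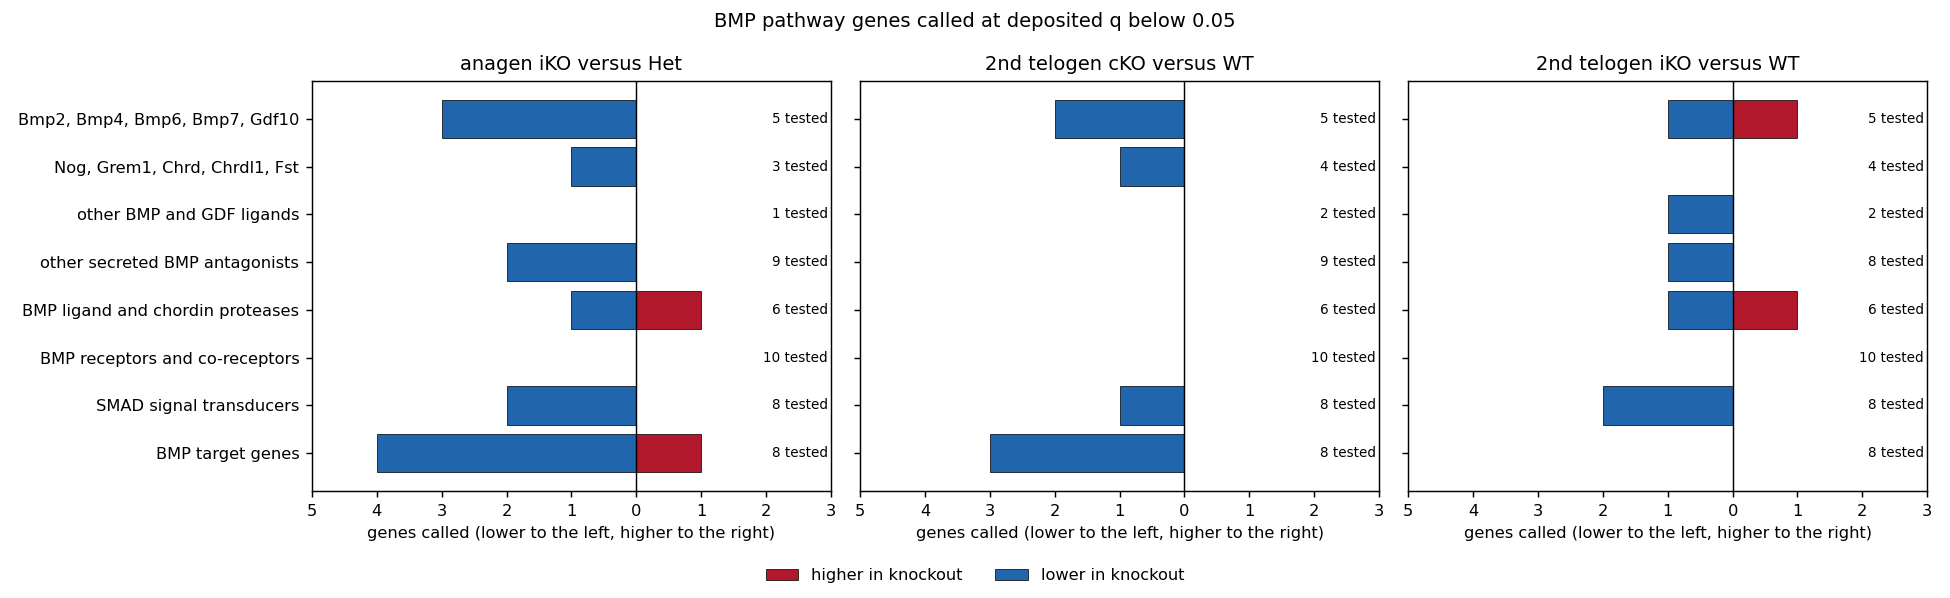
Bars count the genes called lower (left of 0) and higher (right of 0) in knockout cells, for 8 groups of BMP pathway genes in 3 comparisons, with the number tested at the right. Receptors have no bar in any panel, and the target genes have 4 lower and 1 higher in anagen iKO and 3 lower in telogen cKO cells.

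Likeness of pattern was measured as Pearson's r of log2(FPKM + 1) over the 7 pooled groups, among 12689 other genes with a mean of at least 1 FPKM. With 7 points, of which several share strain, stage and library scale, high values are common, and r is given as a description. For Gdf10 the 3 most alike genes were Smyd4 (r = 0.97), Ppp1r1b (0.95) and B3glct (0.948), and only 2 genes reached 0.95. For Bmp6 they were Sort1 (0.98), Cables2 (0.97) and Dnajc16 (0.96), with 7 genes at 0.95 or more. Bmp2 was most like Peli2, Sh3bp1 and Mettl7a1 (each r = 0.99), with 99 genes at 0.95 or more, and Nog most like Idua, Aff3 and Ddr1 (each 0.99), with 96. Grem1 was most like Pdzrn4, Ephx1 and Dtd1, Fst like Rdh9, Axin2 and Lmo7, Bmp7 like Sh2d4a, Hoxd8 and Lrp4, and Bmp4 like Gm14378, Glul and Ncoa7. Among the members themselves, Bmp2 had r = 0.95 with Nog, 0.92 with Fst and 0.90 with Bmp7, and Gdf10 had -0.83 with Fst and -0.81 with Bmp7. Bmp6 went with Gdf10 (0.71) and against Grem1 (-0.65).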

How the data were processed

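RNA of 12 libraries in 7 groups was measured by TruSeq mRNA sequencing, per the labels' protocols. TopHat, Cufflinks, Cuffdiff and build mm9 are named in the submitters' processing notes, and their versions and settings are not given in the sources used here. FPKM values were deposited by the authors as 1 pooled value per group and gene, in 3 tables of 23735 gene models. Depth is unknown, so no counting interval is given. The log2 fold changes, the test statistic (a score signed like the fold) and the p-values and q-values are those of the authors' Cuffdiff test, per the file headers. The q-values matched a Benjamini-Hochberg adjustment of p over all tested rows of each table to within 5.28e-07; the smallest p is 5e-05. In the joint table that adjustment spans 21 comparisons. Tables were scaled separately (joint over own table, median log2 of -0.08 in anagen and 0.06 in telogen), so levels were compared within 1 table. Locus starts were counted from 1.

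Calls used q below 0.05, with 2 libraries per group. The labels do not say outright that same-sex, same-age libraries of a group came from different mice, so p-values may measure technical spread. Which error the test models is not given. The SE was the log2 fold over the statistic. A z test compared knockout effects, two-sided, with Benjamini-Hochberg adjustment over all genes, and was tested on simulated data (SciPy 1.17.1, statsmodels 0.14.6). Genes whose deposited p was not below 0.05 while the p from the statistic was were left out of it. Lists hold 133 genes, 3 of which (Krt6a, Krt85 and Adgre1) matched no row; list medians used a pseudocount of 1. Of each list at most 4 called genes by lowest q were to be named, all 10 members always, and 3 genes most like each member with a mean of at least 1 FPKM. Members, lists and tests were chosen with earlier results of these data known. Promoters came from RefSeq in GRCm38.p6. Alternatives were a stricter q, low-value filters, pseudocounts, the joint table, other SEs and median centring.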

Additional observations from a re-analysis of the deposited data

Results flagged for a closer look

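The log2 fold of Nog, knockout over control, differed between telogen iKO and anagen iKO cells in a comparison added after the data were seen. Telogen iKO cells were set against the WT libraries that also served the telogen cKO cells. The telogen minus anagen difference of the log2 folds was 1.41 (SE 0.38, Benjamini-Hochberg q = 0.0238, z test over all genes). It was not called with a larger SE taken from the deposited p. Nog was lower in telogen cKO than in WT cells (log2 fold -0.83, SE 0.29). Between telogen cKO and anagen iKO its difference was 0.76 (SE 0.40) and was not called. In the joint table Nog had 41.3 FPKM in telogen iKO and 46.8 in WT cells, and 5.55 FPKM in anagen iKO and 16.7 in Het cells. The telogen control differs from the telogen iKO cells in strain, age, sex and tamoxifen treatment. Whether the difference comes from stage or from those was not tested.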

How the results depend on the processing

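No paired analysis was possible because each table holds 1 pooled value per group, with no value per library, and for the same reason no replicate was left out. At a q below 0.01, the 4 members called between telogen iKO and cKO cells became 0. Between telogen cKO and anagen iKO effects, 0 members differed in the 2-group tables and 1, Gdf10, in the joint table. Nog, the 1 member that differed between telogen iKO and anagen iKO effects, became 0 with the larger SE. In telogen cKO cells, Nog was no longer called at a q below 0.01, which left 2 of 3 members. In the Shh-Het pair a limit of 1.5-fold gave 8 members lower, against 5 past 2-fold. The other member counts stayed within 1.5 times under the alternatives that were run. The choice of row for a symbol, 1 of these, could not change them, since each member had 1 row. A pseudocount of 1 moved 11 of 53 member log2 folds by more than 1 SE and a pseudocount of 5 moved 23. A pseudocount always moves a fold toward 0 and cannot change its sign. Low levels limit what can be read of Chrd in all groups, of Chrdl1 outside first telogen and of Bmp4 in the groups near 1 FPKM, and the depth behind them is unknown.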
